A study of Mus musculus with 24 samples.

Results

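The NRF2 pathway is the main antioxidant response of mammalian cells. The 10 genes described here were taken by gene symbol from the deposited table of 55487 genes and comprise the transcription factor NRF2 (Nfe2l2), its inhibitor (Keap1) and 8 enzymes of the response (Gclc, Gclm, Gsr, Txnrd1, Srxn1, Nqo1, Hmox1 and G6pdx). All 10 passed the filter on low counts. RNA was sequenced from mouse embryonic fibroblasts (MEFs) that were wild type (WT) or lacked AMPK, the energy-sensing kinase, both catalytic subunits of which (prkaa1 and prkaa2) were deleted according to the study's methods. Cells of each genotype received the vehicle DMSO, the AMPK activator MK8722 or the MTOR kinase inhibitor torin1, and each of the 6 groups held 4 libraries. WT libraries came from passages 12 to 15 and AMPK KO libraries from passages 16 to 19, with 1 library of each passage in each group, so that genotype and passage cannot be told apart.

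In unstressed cells the KEAP1 protein holds NRF2 in a ubiquitin ligase complex and NRF2 is degraded. Electrophiles and oxidants modify KEAP1, after which NRF2 accumulates, pairs with a small MAF protein and binds the antioxidant response element in its target genes. Much of this regulation acts on the NRF2 protein, which RNA sequencing does not measure. The selective autophagy receptor p62 (Sqstm1) can also bind KEAP1.

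Library totals ran from 26900240 to 34192685 counts, and the RNA integrity numbers from 9.7 to 10. Nqo1 had the lowest counts among the 10 genes, with 68 counts in its poorest library, and Txnrd1 the highest, with 13959 counts in its richest. Under DMSO the mean of Prkaa1 RNA was 80.9 CPM (TMM-scaled counts relative to the library total) for WT against 70.9 for the knockout, and that of Prkaa2 RNA 4.74 against 3.21 CPM, so that total transcript levels of the targeted genes do not check the genotype labels. The summed level of 7 fibroblast markers lay between 11100 and 17100 CPM in WT libraries and between 4770 and 6830 CPM in AMPK KO libraries, and all 7 passed the test as lower in AMPK KO under DMSO. Summed epithelial markers stayed between 1.33 and 6.72 CPM, endothelial markers between 0.807 and 8.49 CPM and blood markers between 1.1 and 4.09 CPM, with Adgre1 at 0 in every library. In these bulk samples fewer expressing cells and less RNA per cell cannot be told apart. The labels give the 4 libraries of a group different passages but do not say whether the cultures were otherwise independent. The p values therefore measure the spread between libraries of different passages.

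A gene was called when edgeR's quasi-likelihood test, fitted to all 24 libraries, gave a Benjamini-Hochberg adjusted p under 0.05 over 15828 genes and a fold change of at least 1.2. Torin1 lowered 8 of the 10 genes in WT, where it called 47.6% of all genes tested (26.6% higher, 21.1% lower). It lowered 7 in AMPK KO, where it called 43.5% (25.9% higher, 17.6% lower), and raised none in either genotype. MK8722 moved 2 in WT, Hmox1 upward and Nfe2l2 downward, against 15.7% of all genes (10% higher, 5.66% lower). In AMPK KO it moved none of the 10 and 1.56% of all genes (0.866% higher, 0.695% lower). Between genotypes the clearest difference was Nqo1, which was 3.67-fold higher in AMPK KO.

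Promoter sequence is shown first, because NRF2 is known to bind a sequence element in its targets. A link between this element and the fall of most of the genes under torin1 was not tested. RefSeq promoter windows of 300 bases, 250 before and 50 after a start site, were matched for 7 of the 10 genes in the GRCm38.p6 assembly, with 3 alternative windows for Txnrd1. No entry was matched for Gclc, Gsr and Hmox1. The core of the antioxidant response element, TGACNNNGC, was searched on both strands and occurred in 5 of the 7 genes with a window, against 14% of the 27025 genes with a window and 12.4% of all 32851 windows. The stretches that hold it are printed with the core in capitals, or its reverse complement where the core lies on the opposite strand from the gene.

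Nfe2l2, chr2:75704885-75704913, minus strand: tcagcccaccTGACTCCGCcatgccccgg
Gclm, chr3:122245383-122245471, plus strand: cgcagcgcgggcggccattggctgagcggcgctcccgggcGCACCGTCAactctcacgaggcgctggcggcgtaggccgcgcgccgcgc
Txnrd1, the second of its windows, chr10:82859074-82859162, plus strand: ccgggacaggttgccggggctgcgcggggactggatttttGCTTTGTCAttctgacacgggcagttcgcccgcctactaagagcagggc
Srxn1, chr2:152105542-152105570, plus strand: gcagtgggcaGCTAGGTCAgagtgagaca
G6pdx, chrX:74428919-74428947, minus strand: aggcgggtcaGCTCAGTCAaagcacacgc

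Against the RefSeq start of its window, the core began 240 bases upstream in Nfe2l2, 134 in Gclm, 92 in Txnrd1 and 57 in G6pdx, and at base 29 of the transcript in Srxn1. For G6pdx the transcript that held most of the estimated counts, ENSMUST00000004327 with a mean share of 92.9%, starts further upstream, so that the core lies 257 bases downstream of that start and within its first exon. The Nfe2l2 copy read along the gene and the other 4 against it. The extended form TGACTCAGC, which contains the core, was in no window of these genes and in 0.454% of all windows. The Srxn1 window holds TGAGTCAGC before its start, with G in place of the first C, which the search did not cover. Sequence outside the windows was not searched. The E-box CACGTG, a site bound by the TFEB family, was likewise in none of the 9 windows and in 7.15% of all windows. A match to these letters is a description of the sequence, and binding was not measured.

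**Figure D1:**
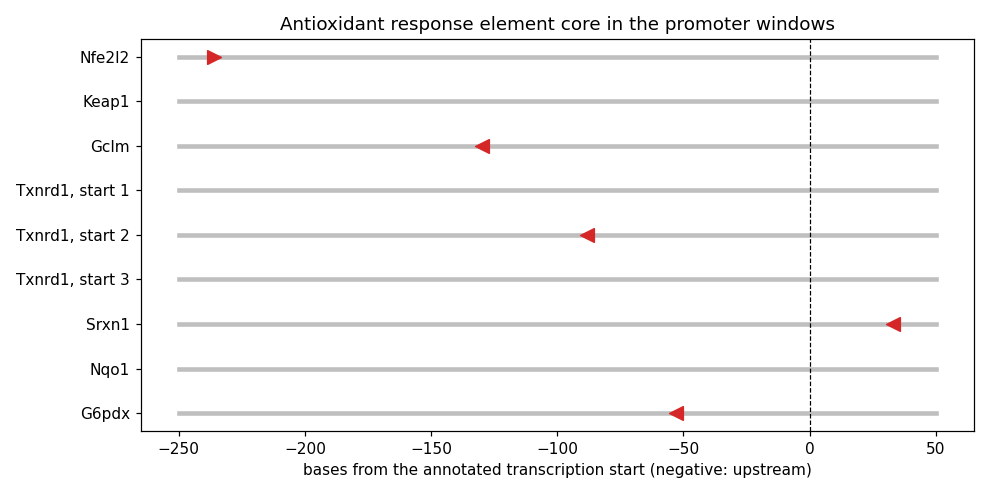
Position of the element core TGACNNNGC (red arrows, pointing along the strand it reads on) in the 9 promoter windows of 7 genes (grey lines), in bases from the RefSeq start of each window. Of the 5 copies, 4 lie upstream of that start and the Srxn1 copy lies after it, while the main G6pdx transcript starts 257 bases before its copy.

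On a scale corrected for transcript length (TPM), Txnrd1 was the most abundant of the 10 transcripts and Nqo1 the least in both genotypes under DMSO. Txnrd1, the cytosolic thioredoxin reductase, averaged 228 ± 7.62 TPM (SD, n = 4) in WT and 221 ± 8.63 TPM in AMPK KO. Gclm followed with 132 ± 7.54 and 113 ± 5.38 TPM. Its partner subunit Gclc stood at 30.3 ± 3.23 and 33.7 ± 3.15 TPM. The Gclm value rests largely on short annotated transcripts. In WT under DMSO those of 762, 1002 and 1088 bases averaged 40.3, 39.3 and 27.8 TPM, against 8.59 TPM for the 5589-base transcript. The 762-base one is annotated as a processed transcript, not as protein coding. Without the length correction, the WT DMSO means were 93.3 CPM for Gclm and 63.5 CPM for Gclc. Nfe2l2 and Keap1 were nearly level in WT, at 46.9 ± 4.91 and 47.6 ± 1.37 TPM, and apart in AMPK KO, at 62.5 ± 1.69 and 40.2 ± 0.898 TPM. G6pdx was the fourth most abundant in WT and the third in AMPK KO. Replicates of a group were close, with a median coefficient of variation of 6.07% over the 60 sets of 4 libraries and a highest one of 21.9%, for Nqo1.

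**Figure D2:**
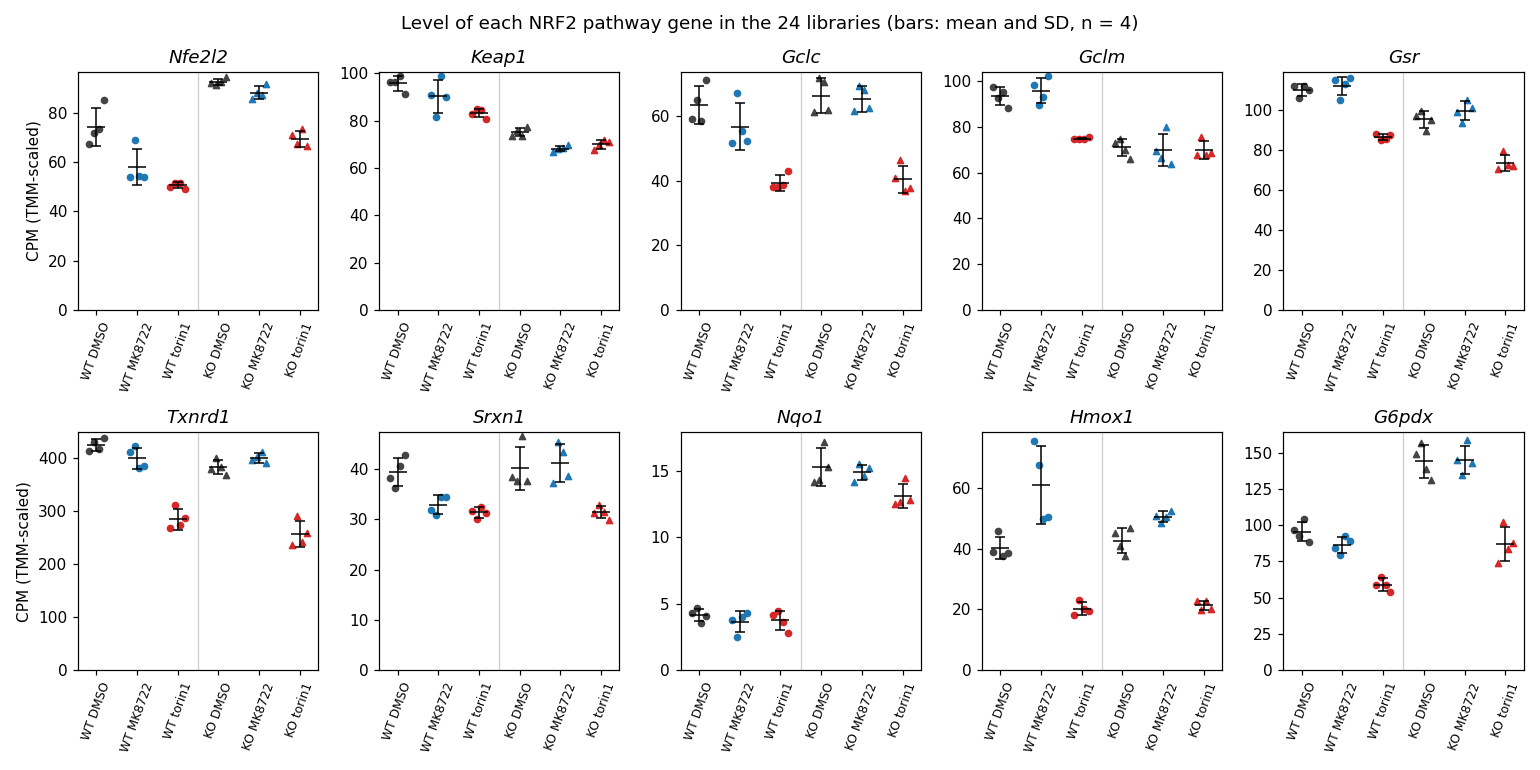
CPM of each of the 10 genes (vertical axes from 0) in every library, by group (points; circles WT, triangles AMPK KO), with the group mean and SD (n = 4). The torin1 libraries of Gclc, Gsr, Txnrd1, Srxn1, Hmox1, G6pdx, Nfe2l2 and Keap1 lie below every DMSO library of the same genotype. Nqo1 separates by genotype.

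Nfe2l2 (ENSMUSG00000015839, chr2:75675513-75704641, GRCm38, minus strand), which encodes NRF2, fell with torin1 in both genotypes. Its WT DMSO libraries measured 67.2, 71.8, 73.6 and 85.3 CPM and the WT torin1 libraries 50, 51.4, 51.7 and 49.1 CPM. The groups did not overlap, and the level fell by 32.1% (log2 fold change -0.56, SE 0.067, edgeR adjusted p 1.4e-07). In AMPK KO the values went from 91.4 to 94.4 CPM under DMSO to 66.5 to 73.5 CPM under torin1, again without overlap (-0.41, SE 0.066, adjusted p 1.1e-05). The torin1-treated knockout libraries overlapped the untreated WT libraries.

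MK8722 also lowered Nfe2l2 in WT, where the libraries read 54.1, 68.8, 54.4 and 54.1 CPM (-0.36, SE 0.067, edgeR adjusted p 0.00022). Of these 4, 1 library stood at 68.8 CPM and overlapped the DMSO range, and the others were below it. That library and the highest DMSO library, at 85.3 CPM, both came from passage 12. Within passages the log2 difference from DMSO ran from -0.435 to -0.309. In AMPK KO the MK8722 libraries lay between 85.5 and 91.7 CPM and the change was not called (-0.07, SE 0.066, adjusted p 0.66). The difference between the genotypes in the response to MK8722 was itself called, at 0.29 on the log2 scale (SE 0.094, edgeR adjusted p 0.034), in a contrast that called 12.8% of all genes (5.12% higher, 7.66% lower). That call was lost without any 1 of 7 libraries (WT DMSO replicate 4, WT MK8722 replicates 1, 3 and 4, AMPK KO DMSO replicates 1 and 2, AMPK KO MK8722 replicate 4), with values over all single omissions of 0.22 to 0.39 and adjusted p up to 0.087.

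Keap1 (ENSMUSG00000003308, chr9:21229730-21239361, minus strand), the NRF2 inhibitor, moved little with either drug. Its mean in WT went from 95.8 CPM under DMSO to 83.2 CPM under torin1, and no torin1 library reached the DMSO range. The 13.2% decrease fell short of the 1.2-fold limit although its adjusted p was 0.00022 in edgeR. It was called, at -0.32, when a trend with GC content and transcript length was removed. In AMPK KO the decrease of 6.81% also fell short of that limit (edgeR adjusted p 0.046), and was not called with the trend removed. No change was called with MK8722 in either genotype. In AMPK KO, however, the MK8722 libraries, at 66.9 to 69.5 CPM, all lay below the DMSO libraries at 73.6 to 77.3 CPM (-0.14, SE 0.043, edgeR adjusted p 0.083).

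The RNA of Keap1 was spread over several annotated transcripts, and 1 of them took a smaller share under torin1. ENSMUST00000164812, which starts furthest downstream of the 4 that held over 5% of the gene's counts, took 16.1% to 17.9% of the counts in the WT DMSO libraries and 11.3% to 13.9% under torin1. In AMPK KO it took 16.9% to 19.6% under DMSO and 11.3% to 13.1% under torin1. The ranges did not overlap in either genotype. With MK8722 they did, with 14.5% to 19.5% for WT libraries and 16.5% to 19.1% for knockout libraries. These shares are the authors' estimates for transcripts that overlap in sequence and were not tested.

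The genes of glutathione synthesis split, with the catalytic subunit lower under torin1 in both genotypes and the modifier subunit lower in WT alone among the calls. Gclc (ENSMUSG00000032350, chr9:77754535-77794485) encodes the catalytic subunit of glutamate-cysteine ligase, the rate-limiting enzyme. Its libraries measured 59.3, 65, 58.6 and 71.3 CPM under DMSO in WT and 38, 38, 38.7 and 43 CPM under torin1, a decrease of 38% (-0.69, SE 0.085, edgeR adjusted p 2.2e-07). In AMPK KO the ranges were 61.5 to 71.8 CPM and 37 to 46.4 CPM (-0.71, SE 0.085, adjusted p 1.6e-07). Every torin1 library was below every DMSO library in each genotype. No change of Gclc was called with MK8722.

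Gclm (ENSMUSG00000028124, chr3:122245557-122270732) encodes the modifier subunit of the same enzyme. In WT its DMSO libraries read 97.2, 92.4, 95.2 and 88.2 CPM, and its torin1 libraries 74.7, 74.5, 74.8 and 75.3 CPM, the tightest set of any gene and group here with a coefficient of variation of 0.501%. The groups were apart by more than their spread (-0.32, SE 0.058, edgeR adjusted p 4.4e-05). In AMPK KO the DMSO libraries already lay at 66.1 to 74.8 CPM and the torin1 libraries at 67.6 to 75.6 CPM, and no change was called (-0.02, SE 0.058, adjusted p 0.76). The torin1 response of Gclm differed between the genotypes by 0.29 (SE 0.082, edgeR adjusted p 0.024), the only one of the 10 genes called in that contrast, which called 7.07% of all genes (4.15% higher, 2.92% lower). The call was lost without any 1 of 7 libraries (WT DMSO replicate 1, WT torin1 replicates 1 and 3, AMPK KO DMSO replicates 3 and 4, AMPK KO torin1 replicates 2 and 4), with adjusted p up to 0.2 and values down to 0.18. The RNA of Gclm was estimated for 7 annotated transcripts, of which 4 held over 5%, and the reads could be split between them.

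Gsr (ENSMUSG00000031584, chr8:33652523-33698163), glutathione reductase, which returns oxidised glutathione to its reduced form, fell by 21.5% with torin1 in WT and by 22.8% in AMPK KO. The WT libraries went from 106 to 112 CPM down to 84.8 to 88.1 CPM (-0.35, SE 0.043, edgeR adjusted p 2.3e-07). Those of AMPK KO went from 89.6 to 99.3 CPM down to 70.2 to 79.4 CPM (-0.37, SE 0.044, adjusted p 1.1e-07). With MK8722 its libraries overlapped the DMSO libraries, with log2 fold changes of 0.03 in WT and 0.06 in AMPK KO, neither called.

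Txnrd1 and Srxn1, of the thioredoxin system, fell with torin1 in both genotypes. Txnrd1 (ENSMUSG00000020250, chr10:82833951-82897712) measured 412, 430, 416 and 438 CPM under DMSO in WT and 268, 311, 273 and 286 CPM under torin1 (-0.57, SE 0.055, edgeR adjusted p 3.4e-09). In AMPK KO it went from 368 to 400 CPM down to 236 to 291 CPM (-0.58, SE 0.055, adjusted p 4.7e-09). The difference between these responses was 0.00 with an SE of 0.077. Of its 8 annotated transcripts, the pair that starts at the second promoter window, where the element core lies, held most of the estimated counts, with means of 36.9% and 34.7% in WT under DMSO.

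Srxn1 (ENSMUSG00000032802, chr2:152105516-152111376), sulfiredoxin, which repairs over-oxidised peroxiredoxins, had 38.3, 36.2, 40.6 and 42.7 CPM under DMSO in WT and 31.7, 30, 32.5 and 31.3 CPM under torin1 (-0.33, SE 0.07, edgeR adjusted p 0.00026). In AMPK KO torin1 lowered it by 21.7% (-0.35, SE 0.07, adjusted p 0.00014), to 29.9 to 32.9 CPM. All torin1 libraries lay below all DMSO libraries. With MK8722 the WT libraries were at 30.8 to 34.5 CPM, all below the DMSO libraries, and the change of -0.26 (SE 0.07, adjusted p 0.0069) stopped just short of 1.2-fold. It passed without WT DMSO replicate 1 or 2 or WT MK8722 replicate 3 or 4, with values down to -0.32, and under DESeq2. In AMPK KO it was 0.04 (SE 0.069, adjusted p 0.85), and the interaction was called at 0.30 (SE 0.099, edgeR adjusted p 0.039). That call was lost without any 1 of 9 of the 16 libraries, with adjusted p up to 0.089 (WT DMSO replicates 3 and 4, WT MK8722 replicates 1 and 2, AMPK KO DMSO replicates 1, 2 and 4, AMPK KO MK8722 replicates 2 and 3).

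Hmox1 (ENSMUSG00000005413, chr8:75093621-75100589), haem oxygenase, which breaks haem down into biliverdin, iron and carbon monoxide, was called with both drugs in WT, in opposite directions. Its libraries measured 38.7, 45.6, 37.6 and 38.6 CPM under DMSO, 75.4, 67.6, 49.7 and 50.5 CPM under MK8722, and 18.2, 23.1, 20.1 and 19.5 CPM under torin1. The 3 groups did not overlap. MK8722 raised the level 1.51-fold (0.60, SE 0.11, edgeR adjusted p 0.00014) and torin1 lowered it by 49.6% (-0.99, SE 0.11, adjusted p 4.5e-08). The MK8722 libraries fell into a higher pair, replicates 1 and 2 of passages 13 and 12, and a lower pair of passages 15 and 14. Within passages the log2 difference from DMSO was 0.809 and 0.725 at passages 12 and 13. It was 0.382 and 0.401 at passages 14 and 15. In AMPK KO it was 0.357 and 0.304 at passages 16 and 17, and 0.165 and 0.174 at passages 18 and 19. An effect of passage on the response was not tested.

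In AMPK KO torin1 lowered Hmox1 by 50.1% (SE 0.11 on the log2 scale, edgeR adjusted p 4.1e-08), from 37.7 to 46.7 CPM down to 19.7 to 22.6 CPM. With MK8722 the 4 knockout libraries, at 48.3 to 52.4 CPM, all lay above the DMSO libraries, yet the 1.19-fold difference was not called (0.25, SE 0.11, adjusted p 0.23). The WT and AMPK KO responses to MK8722 differed by -0.35 (SE 0.15), which did not pass either (adjusted p 0.11). It passed without WT MK8722 replicate 3, at an adjusted p of 0.041, and nowhere else among the 16 single omissions. It also passed in a fit with passage as a block (-0.34, SE 0.095, edgeR adjusted p 0.011), a term that the reported fit does not hold. The largest fall with torin1 among the 10 genes was that of Hmox1 in both genotypes.

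Nqo1 (ENSMUSG00000003849, chr8:107388225-107403206, minus strand), a quinone reductase that is widely used as a readout of NRF2, was not called with either drug in either genotype. In WT it read 4.28, 4.68, 3.57 and 4.11 CPM under DMSO, 3.78, 2.49, 4.01 and 4.29 CPM under MK8722, and 4.17, 4.44, 3.6 and 2.81 CPM under torin1. These sets overlapped. Its standard errors, 0.14 in WT, were the largest of the 10 genes. In AMPK KO the torin1 libraries, at 12.5 to 14.5 CPM, overlapped the DMSO libraries at 14.2 to 17.2 CPM (-0.22, SE 0.11, edgeR adjusted p 0.11).

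G6pdx (ENSMUSG00000031400, chrX:74409483-74429194, minus strand), glucose-6-phosphate dehydrogenase, which supplies the NADPH that the glutathione and thioredoxin reductases use, fell by 38.1% with torin1 among WT cells and by 39.6% among knockout cells. The WT libraries read 96.9, 92.4, 104 and 88.7 CPM under DMSO and 58.6, 64.5, 59.1 and 54.1 CPM under torin1 (-0.69, SE 0.081, edgeR adjusted p 8.5e-08). Those of AMPK KO read 149, 157, 139 and 131 CPM under DMSO and averaged 86.9 ± 11.8 CPM (SD, n = 4) under torin1 (-0.73, SE 0.079, adjusted p 3.9e-08). Neither pair of groups overlapped. MK8722 gave -0.15 in WT (SE 0.08, adjusted p 0.19) and 0.01 in AMPK KO.

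**Figure D3:**
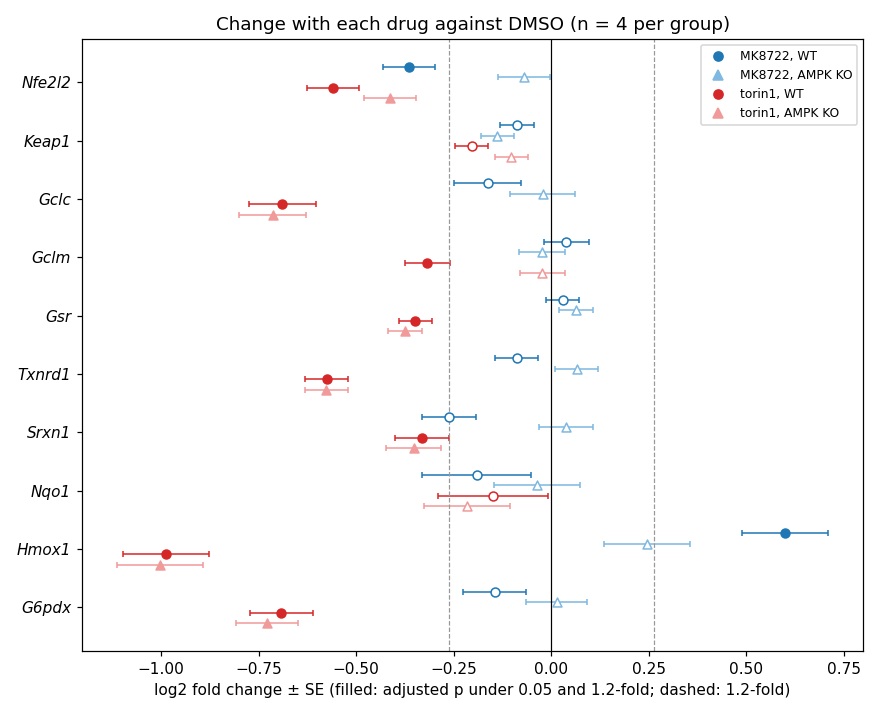
Log2 fold change against DMSO with its standard error (horizontal axis) for the 10 genes under MK8722 (blue) and torin1 (red) in WT (circles) and AMPK KO (triangles). Filled symbols passed the test, 8 and 7 under torin1 and 2 and 0 under MK8722, and Hmox1 under MK8722 in WT is the only filled symbol to the right of 0.

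Over the 10 genes the median log2 fold change with torin1 was -0.45 in WT and -0.39 in AMPK KO, against 0.04 and 0.05 over all 15828 genes. All 10 values were below 0 in each genotype, whether called or not, except that Gclm in AMPK KO was at 0.038 when scaled by library size alone and at 0.023 with the GC and length trend removed. The WT comparison left 9 genes (all but Nqo1) without overlap between the groups, each lower, against 24.7% of all genes. The AMPK KO comparison left 8 (all but Nqo1 and Gclm), against 23.7% of all genes. With MK8722 the median was -0.12 in WT and 0.00 in AMPK KO. In AMPK KO 2 of the 10 genes (Keap1 and Hmox1) and 2610 of all genes had an unadjusted p under 0.05 in edgeR, and DESeq2 called none of the 10 either. Scaling by library size alone, without TMM, raised the share of higher genes among all calls from 55.8% to 67.5% for torin1 in WT, and left 5 of the 8 calls, Gclm, Gsr and Srxn1 ending under 1.2-fold.

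AMPK KO and WT differed under DMSO in 5 of the 10 genes, 3 higher and 2 lower, in a comparison that called 56.9% of all genes, 30.9% as higher and 26% as lower. With library size alone 67.4% of those calls over all genes were higher, against 54.3%, and Keap1 and Gclm lost theirs. Nqo1 was higher in every treatment. Its knockout libraries read 14.2, 14.3, 17.2 and 15.3 CPM under DMSO and no WT library of any treatment exceeded 4.68 CPM. The log2 difference was 1.87 under DMSO (SE 0.13, edgeR adjusted p 3.4e-12), 2.03 under MK8722 (adjusted p 1e-12) and 1.81 under torin1 (adjusted p 8.6e-12). The next largest difference between genotypes was that of G6pdx, 1.68-fold under MK8722.

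Nfe2l2 was also higher in AMPK KO, by 0.31 under DMSO (SE 0.066, edgeR adjusted p 0.00019), 0.61 under MK8722 and 0.46 under torin1, and without overlap each time. The DMSO call was lost without WT DMSO replicate 1 or 2, where the lowest value was 0.22 and the fold change fell under 1.2. Its inhibitor Keap1 was lower, at 73.6 to 77.3 CPM under DMSO against 91.4 to 99 CPM in WT (-0.35, SE 0.043, adjusted p 9.8e-08), and by 0.40 under MK8722. Under torin1 Keap1 was -0.25 (SE 0.043, adjusted p 1.6e-05), below 1.2-fold, and without overlap. It passed 1.2-fold without any 1 of WT torin1 replicates 1, 3 and 4 and AMPK KO torin1 replicates 2, 3 and 4, with values of -0.33 to -0.24 over single omissions, and under DESeq2. Of all genes, 58.9% were called between the genotypes under MK8722 (31.4% higher, 27.5% lower) and 54.6% under torin1 (31% higher, 23.6% lower), and of the 10 genes 4 were higher and 3 lower under MK8722 and 3 higher under torin1.

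Gclm was lower in AMPK KO under DMSO (-0.39, SE 0.058, edgeR adjusted p 1.8e-06) and under MK8722 (-0.46, adjusted p 1.8e-07), while under torin1 its sets overlapped and it was not called (-0.10, adjusted p 0.13). Srxn1 passed as higher under MK8722 alone (0.32, adjusted p 0.00025). That call was lost without AMPK KO MK8722 replicate 2 (0.25, under 1.2-fold) and, at 0.08, when a trend with GC content and transcript length was removed. Hmox1 passed as lower under MK8722 (-0.27, SE 0.1, adjusted p 0.025) although the groups overlapped, and was lost without WT MK8722 replicate 1 or 2, with adjusted p up to 0.14. DESeq2, DESeq2's size factors (both -0.26, under 1.2-fold), library size alone (-0.15) and 3 further alternatives also lost it. Gsr was lower in all 3 treatments without overlap under DMSO, MK8722 and torin1, but under 1.2-fold each time, although it passed without WT DMSO replicate 2 and, under torin1, without any 1 of WT torin1 replicates 1, 3 and 4 and AMPK KO torin1 replicates 2 and 4. Gclc and Txnrd1 were called in no treatment by the reported fit. Without WT MK8722 replicate 2 Gclc passed under MK8722 (0.29), and without AMPK KO torin1 replicate 2 Txnrd1 passed under torin1 (-0.30). With all libraries Gclc also passed under MK8722 when scaled by library size alone (0.32). The same held with at least 10 counts in every library (0.27) and with the GC and length trend removed (0.35).

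G6pdx was higher in AMPK KO under DMSO by 0.59 (SE 0.079, edgeR adjusted p 4.5e-07), under MK8722 by 0.75 and under torin1 by 0.56, without overlap. The gene is X-linked, and the cells of the genotypes differed in X- and Y-linked RNA. Xist, the RNA that silences an X chromosome in female cells, lay between 281 and 511 CPM in WT libraries and between 0.0296 and 0.0903 CPM in AMPK KO libraries. The 4 Y-linked genes Ddx3y, Kdm5d, Eif2s3y and Uty reached at most 0.0393 CPM in a WT library and 0.692 CPM in an AMPK KO library. The part of this difference, of passage and of the lower fibroblast markers in the genotype differences of G6pdx and the other genes was not tested.

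**Figure D4:**
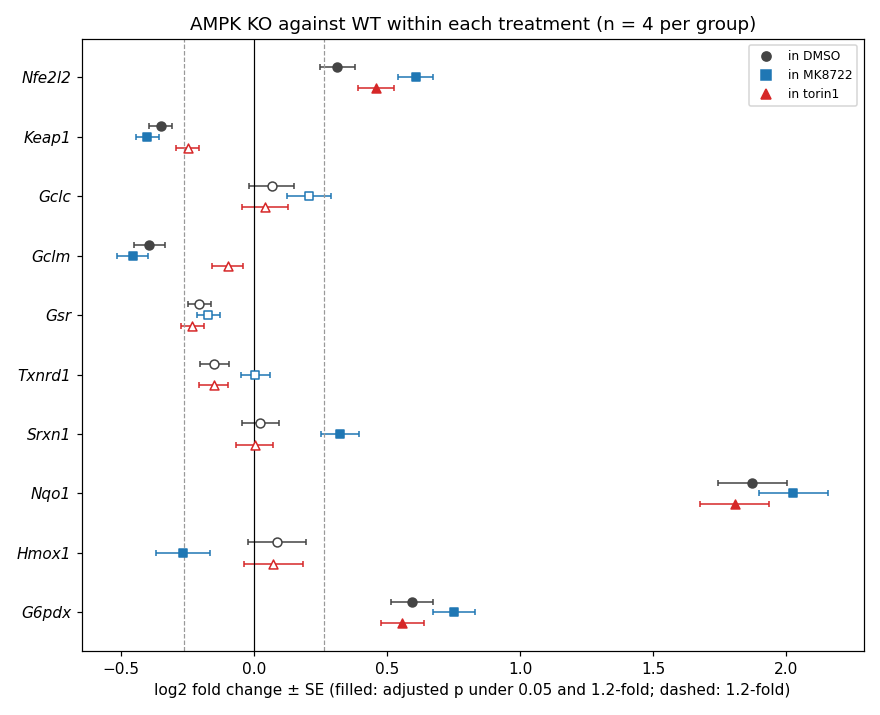
Log2 difference of AMPK KO from WT with its standard error (horizontal axis) for the 10 genes under DMSO (grey circles), MK8722 (blue squares) and torin1 (red triangles). Filled symbols passed the test, 5, 7 and 3 in turn, and Nqo1 lies near 2 under each treatment while the other 9 genes stay within 1.

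Other genes were taken from 6 lists, of NRF2 regulators and of glutathione, thioredoxin and peroxide, NADPH, haem and iron, and detoxification genes. The lists held 49 genes, of which 47 were tested. Whether NRF2 controls these genes was not tested. With torin1, 20 of the 47 fell and 5 rose in WT, where 21.1% of all genes fell and 26.6% rose. In AMPK KO 18 fell and 7 rose, against 17.6% and 25.9% of all genes. Their median log2 fold change was -0.21 in WT and -0.14 in AMPK KO. The genes with the largest falls were those of cystine and glutathione handling. Slc7a11, which imports cystine for glutathione synthesis, measured 13, 19.7, 14.6 and 40.8 CPM under DMSO in WT and 0.145 to 0.413 CPM under torin1 (-6.28, SE 0.59, edgeR adjusted p 2.4e-09). In AMPK KO it went from 28.8 to 46.2 CPM down to 0.451 to 1.11 CPM (-5.46, SE 0.47, adjusted p 1e-09).

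Chac1, which degrades glutathione, fell by 90.6% in WT (-3.42, SE 0.16, edgeR adjusted p 3.7e-14) and by 95.9% in AMPK KO (-4.61, SE 0.17, adjusted p 1.9e-15). Of 10 glutathione genes tested, 5 fell in each genotype and 1 rose in WT. Of 8 thioredoxin and peroxide genes, 5 fell in each, while 1 rose in WT and 2 in AMPK KO. The largest falls were those of the peroxiredoxins Prdx1 (-0.94 in WT, -0.76 in AMPK KO) and Prdx6 (-0.67 and -0.74). These 2 enzymes reduce peroxides, and Prdx1 belongs to the group that the product of Srxn1 repairs.

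RNA of other NADPH genes also fell. Pgd, the next dehydrogenase of the pentose phosphate pathway to yield NADPH, fell by 37.4% in WT (-0.68, SE 0.067, edgeR adjusted p 5.8e-09) and by 34.5% in AMPK KO (-0.61, SE 0.066, adjusted p 3.9e-08). Of 6 genes of the list, 4 fell in WT, with Idh1 at -0.86, and 3 in AMPK KO, with Taldo1 at -0.52, and none rose. Among haem and iron genes, the ferritin heavy chain Fth1 fell in both (-0.35 and -0.51), the light chain Ftl1 fell in AMPK KO (-0.35), and Fech, which makes haem, rose in WT (0.41). Of 6 detoxification genes tested, Osgin1 alone was called (-0.31 in WT, -0.94 in AMPK KO).

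Of 10 regulators 4 fell and 2 rose in WT, and 2 fell and 5 rose in AMPK KO. Sqstm1 rose 1.69-fold with torin1 in WT (0.76, SE 0.13, edgeR adjusted p 2.7e-05) and 1.67-fold in AMPK KO (adjusted p 4e-05), while Nfe2l1, an NRF2 relative that controls proteasome genes, fell by 35.8% and 39.8%. With MK8722 in WT, Sqstm1 rose 1.98-fold (0.99, SE 0.13, adjusted p 4.5e-06), its libraries reaching 459 to 688 CPM from 240 to 329 CPM, and the small MAF gene Mafg rose 1.65-fold (0.72, SE 0.074, adjusted p 8.4e-08). Among the 47 genes of the lists 7 were called under MK8722 in WT, close to the 15.7% of all genes. Of these, 3 regulators rose, and Glrx (-0.58), Pgd (-0.34), Osgin1 (-0.43) and 1 further gene fell. In AMPK KO, Chac1 was the only one of the 47 called with MK8722 (0.66, SE 0.13, adjusted p 0.0065).

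**Figure D5:**
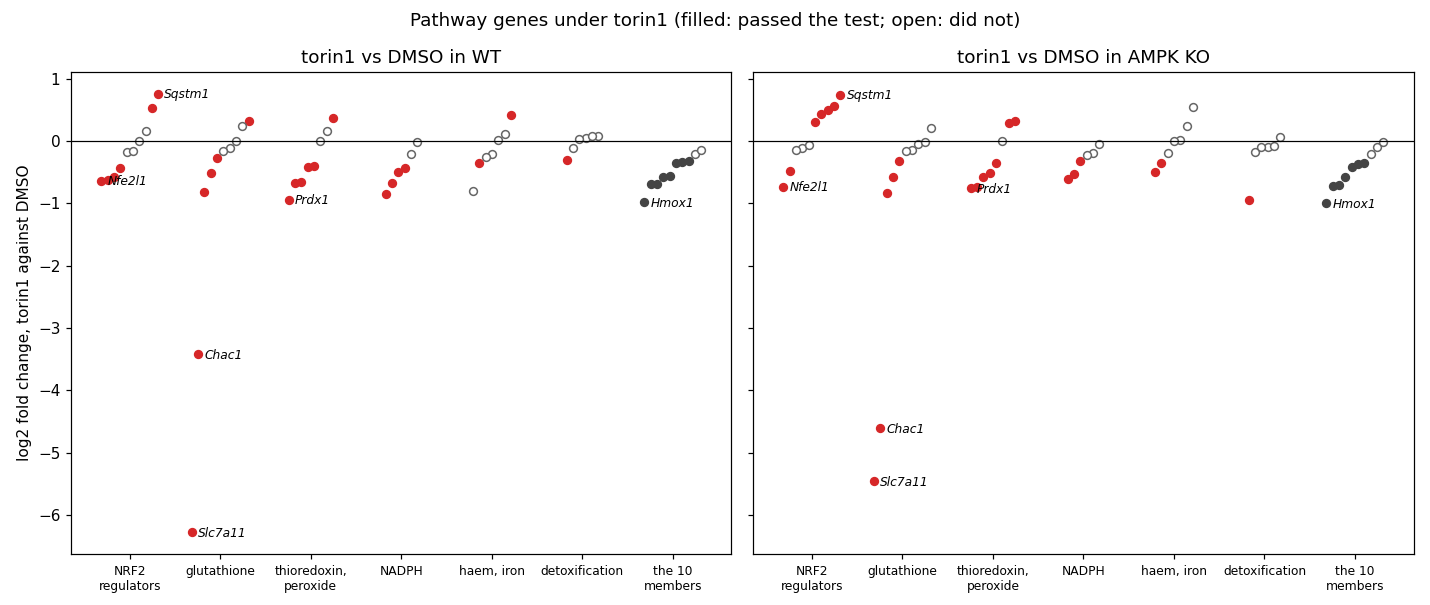
Log2 fold change with torin1 (vertical axis) in WT and AMPK KO for the 47 tested genes of the 6 lists (red where called, open where not) and the 10 genes (grey where called). Slc7a11 and Chac1 lie far below the rest, and Sqstm1 is the highest of the regulators in both panels.

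Under DMSO, 22 of the 47 genes of the lists were higher in AMPK KO and 8 lower, where 30.9% of all genes were higher and 26% lower. The median of the 47 was 0.18 against 0.01 over all genes. Detoxification genes had 5 of 6 higher, among them Osgin1 (1.13) and the carbonyl reductase Cbr1 (1.06). The biliverdin reductase Blvrb was 3.58-fold higher (1.84, SE 0.1, edgeR adjusted p 7.4e-14), Fth1 1.89-fold and the glutathione transferases Gstm1 and Gstp1 2.12-fold and 1.78-fold. Maff, Rbx1 and Prdx3 were also higher, by 0.68, 0.60 and 0.68. NADPH genes had 3 of 6 lower, led by Idh1 (-1.03) and Tkt (-0.86), against the direction of G6pdx, and catalase (Cat) was lower too (-0.57).

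The patterns of Nqo1 and Nfe2l2 over the 6 group means were compared with those of 10541 genes of at least 5 CPM. The genes most like Nqo1 were Col18a1, Cd74 and Cotl1, with Pearson r of 0.9997, 0.9994 and 0.999, and 185 genes exceeded 0.99. Those most like Nfe2l2 were Smap2, Sf3a1 and Rprd1b (0.9965, 0.9947 and 0.9944), and 14 genes exceeded 0.99. With 6 points that share their libraries and fall into 2 genotypes, such values describe the order of the groups only.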

How the data were processed

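The authors processed reads with nf-core/rnaseq (STAR, Salmon, GRCm38) and deposited estimated counts per gene (expected counts, not normalized) and, per transcript, estimated counts and TPM. Counts were rounded, filterByExpr kept 15828 genes holding 99.96% of counts, and edgeR's quasi-likelihood test used TMM factors, all 24 libraries and 1 mean per group (edgeR 4.0.16, R 4.3.3, limma 3.58.1). Tests were two-sided, with Benjamini-Hochberg adjustment. Common dispersion corresponded to a coefficient of variation of 0.079. CPM use TMM factors, log2 CPM a prior count of 2, and levels across genes use the deposited TPM. DESeq2 1.42.0, other scalings and filters, a transcript length offset, replicate blocks and omission of each library were alternatives.

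Named were the 10 genes and, per list, the 2 called genes of largest absolute change with a mean of at least 5 CPM, in each drug comparison and in AMPK KO against WT under DMSO. Sex-linked, AMPK and marker genes served as checks. The 10 genes and all lists were chosen with earlier results of these data known. The test was tried on simulated counts first.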

Additional observations from a re-analysis of the deposited data

Results flagged for a closer look

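Of the 60 sets of 4 libraries (10 genes in 6 groups), 5 held a library far from the others, by a gap whose share of the group's range was above Dixon's 95% critical value, which chance gives in about 1 in 20 sets. Nfe2l2 in WT MK8722 replicate 2 was at 68.8 CPM with the others between 54.1 and 54.4 CPM. Gclc in WT torin1 replicate 4 was at 43 CPM against 38 to 38.7 CPM. Gclm in AMPK KO torin1 replicate 2 was at 75.6 CPM against 67.6 to 68.4 CPM. Srxn1 in AMPK KO DMSO replicate 3 was at 46.5 CPM against 37.6 to 38.5 CPM, and Hmox1 in WT DMSO replicate 2 at 45.6 CPM against 37.6 to 38.7 CPM. In each case the outlying library was the highest of its group. For Gclc (passage 12), Gclm (passage 17) and Hmox1 (passage 13), the library of that passage was also highest in the other groups of the genotype. For Nfe2l2 (passage 12) and Srxn1 (passage 16) it was highest under DMSO and under MK8722 but not under torin1. The part of passage was not tested.

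For 3 genes the effect of a drug differed between the genotypes by the test of the interaction in edgeR. With MK8722 the log2 difference (AMPK KO minus WT) was 0.29 for Nfe2l2 (adjusted p 0.034) and 0.30 for Srxn1 (adjusted p 0.039), and with torin1 it was 0.29 for Gclm (adjusted p 0.024). Over all genes these contrasts called 12.8% with MK8722 and 7.07% with torin1. Of 16 single omissions, 7 lost the call of Nfe2l2, 9 that of Srxn1 and 7 that of Gclm. Each call was also lost with library size alone, with the length offset and with only the libraries compared.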

How the results depend on the processing

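Among 674 recomputed values of called genes none changed sign, 624 kept the call and 50 lost it, while 47 values of genes not called gained one. Scaling by library size alone raised the median of all genes by 0.1 for torin1 in WT, 0.14, 0.114 and 0.102 for AMPK KO against WT under DMSO, MK8722 and torin1, and changed counts of called genes to 5 for torin1 in WT, 3 for AMPK KO against WT under DMSO and 0 for each interaction. The higher share of all calls went from 55.5% to 45.1% for MK8722 in AMPK KO, from 56.7% to 66.8% for AMPK KO against WT under torin1 and from 58.7% to 42.1% for the torin1 interaction. AMPK KO against WT under torin1 gave 6 by adjusted p alone, 5 without a filter and 5 with only the libraries compared. The MK8722 interaction gave 0 with a length offset and 0 with only the libraries compared, and the torin1 interaction 0 with these and 0 with at least 10 counts in every library. The cause was not tested.

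Single omissions, with TMM factors recomputed, gave 8 for torin1 in WT, 7 in AMPK KO, 2 to 3 for MK8722 in WT, 0 in AMPK KO, 4 to 5, 6 to 7 and 3 to 6 for AMPK KO against WT under DMSO, MK8722 and torin1, 0 to 2 for the MK8722 interaction and 0 to 1 for the torin1 interaction.

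Replicate numbers did not pair libraries (same-number pairs had a median correlation of 0.017 in WT and -0.0087 in AMPK KO, with 2 of 12 over 0.1 in each), and the replicate block left the counts at 8, 7, 2 and 0 for the drugs, 5, 6 and 3 between genotypes, where Hmox1 under MK8722 was lost, and 2 and 1 for the interactions. Libraries of the same passage were more alike (median 0.1 in WT, 6 of 12 over 0.1, and 0.13 in AMPK KO, 9 of 12). Pairs of different passages had medians of -0.035 and -0.04, with 0 of 36 over 0.1 in each genotype. The reported fit holds no passage term. Among the 10 genes a replicate block by passage added the MK8722 interaction of Hmox1 (-0.34, edgeR adjusted p 0.011) and changed no other call. Over all genes it raised the share called with MK8722 in AMPK KO from 1.56% to 4.61%. The share for the MK8722 interaction went from 12.8% to 17.6%.

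Signs that turned, 81 values in all, belonged to differences that were called neither in the reported fit nor in the alternative. With DESeq2 size factors and with DESeq2, Srxn1 between genotypes under torin1 was -0.024. With library size alone G6pdx under MK8722 in AMPK KO was -0.006, Gclm under torin1 in AMPK KO 0.038 and between genotypes under torin1 0.002. Without a filter, Srxn1 between genotypes was -0.025 under DMSO and -0.042 under torin1, Txnrd1 -0.028 under MK8722, Gclc -0.003 under torin1, and the torin1 interaction of Txnrd1 0.003. With the length offset Gclm under MK8722 in WT was -0.008, Srxn1 in AMPK KO -0.007, Txnrd1 between genotypes under MK8722 -0.011, Gclc under torin1 -0.024, and the torin1 interactions of Gsr and Txnrd1 0.04 and 0.005. With only the libraries compared Srxn1 between genotypes under torin1 was -0.036. With the GC and length trend removed, an alternative chosen after seeing the data, Gclm under torin1 in AMPK KO was 0.023, Srxn1 between genotypes -0.219 under DMSO (adjusted p 0.0087) and -0.2 under torin1 (adjusted p 0.017), Hmox1 -0.092 and -0.077, and the torin1 interactions of Srxn1 and Hmox1 0.019 and 0.015. Over single omissions these took both signs: MK8722 in AMPK KO for G6pdx (-0.034 to 0.058), Gclc (-0.058 to 0.018), Gclm (-0.098 to 0.015), Nqo1 (-0.07 to 0.023) and Srxn1 (-0.012 to 0.113), and in WT for Gsr (-0.006 to 0.057), the genotype difference under DMSO for Gclc (-0.015 to 0.112) and Srxn1 (-0.061 to 0.051), under torin1 for Gclc (-0.111 to 0.077), Hmox1 (-0.053 to 0.131) and Srxn1 (-0.102 to 0), and under MK8722 for Txnrd1 (-0.027 to 0.026), and the torin1 interaction for G6pdx (-0.197 to 0.026), Gclc (-0.17 to 0.017), Hmox1 (-0.139 to 0.059), Nqo1 (-0.186 to 0.027), Srxn1 (-0.125 to 0.02) and Txnrd1 (-0.141 to 0.045). Depth limited Nqo1 most, with 68 counts in its poorest library.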
